A study of Mus musculus with 6 samples.

Results

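The 40 genes studied here, of glycolysis and the hypoxia response, were followed in 6 mouse RNA sequencing libraries, 3 labelled WT and 3 labelled KO. They were chosen by symbol from the 21399 gene symbols listed in each library, and all 40 were found. They comprise 15 glycolytic enzymes, 4 genes of lactate formation and transport, 3 glucose transporters, 4 regulators of glycolytic and pyruvate flux, 6 regulators of hypoxia-inducible factor (HIF) and 8 HIF targets. In both groups primary microglia of mice carrying the CD45.2 form of the leukocyte protein CD45 went through oxygen and glucose deprivation (OGD), a cell model of ischaemia. They were then returned to oxygen together with peritoneal macrophages of CD45.1 mice. The groups differ in the genotype of the microglia donors, WT or KO, and the macrophages were not labelled WT or KO. Neither the deleted gene nor the promoter of any Cre is given in the labels, nor the age of the mice, and the series title names PPARα. The design text calls the sequenced cells microglia but gives them the CD45.1 mark of the added macrophages, and the sample labels name both cell types. The microglia of both groups went through deprivation, and the macrophages joined them at reoxygenation. The comparison is therefore between genotypes of the microglia donors and not between hypoxic and normoxic cultures. It need not be a comparison of cells that themselves differ in genotype or were deprived.

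Glycolysis splits glucose into pyruvate in the cytosol. Hexokinase traps glucose, phosphofructokinase commits it, and pyruvate kinase makes the last step, after which lactate dehydrogenase can reduce pyruvate to lactate for export. In oxygen the EGLN prolyl hydroxylases mark the HIF1α protein for capture by VHL and destruction, whereas in low oxygen HIF1α pairs with ARNT and activates genes of glucose uptake, glycolysis, vessel growth and mitophagy. Macrophages and microglia also use HIF1α and glycolysis during inflammatory activation in oxygen.

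HIF binds a short core in DNA, written ACGTG or GCGTG, so the 250 bases before the annotated starts of the genes were searched for these letters on both strands (CACGT and CACGC are the reverse strand forms). RefSeq promoter windows of GRCm38.p6, the mm10 assembly, were held for 38 of the 40 genes, as 55 windows since some genes have several starts. ACGTG was present in 27 of these 55 windows (49.1%) and in 16.6% of the 32851 windows of all genes. Either form was present in 45 of the 55 windows and in 38.6% of all windows. The base composition differed too, with a mean GC content of 61.0% in the members' windows and 53.2% in all windows, and no allowance was made for it. The windows of 6 genes follow, with every match in capitals. Hif1a, Hk2, Pgk1 and Slc16a3 are the members higher in every KO library than in any WT library that have at least 2 ACGTG matches in a single window. Ldha has the most ACGTG matches in a single window among the 38 genes searched, and Egln2 was lower in every KO library. The Hif1a window lies at chr12:73907617-73907866 on the plus strand, that of Hk2 at chr6:82774455-82774704 on the minus strand and that of Pgk1 at chrX:106186850-106187099 on the plus strand. The Slc16a3 window lies at chr11:120948817-120949066 on the plus strand, that of Ldha at chr7:46845554-46845803 on the plus strand and that of Egln2 at chr7:27166803-27167052 on the minus strand.
Hif1a: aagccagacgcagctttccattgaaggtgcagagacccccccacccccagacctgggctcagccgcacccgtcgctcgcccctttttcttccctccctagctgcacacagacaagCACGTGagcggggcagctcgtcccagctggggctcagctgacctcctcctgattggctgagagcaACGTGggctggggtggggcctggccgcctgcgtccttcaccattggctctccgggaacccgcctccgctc
Hk2: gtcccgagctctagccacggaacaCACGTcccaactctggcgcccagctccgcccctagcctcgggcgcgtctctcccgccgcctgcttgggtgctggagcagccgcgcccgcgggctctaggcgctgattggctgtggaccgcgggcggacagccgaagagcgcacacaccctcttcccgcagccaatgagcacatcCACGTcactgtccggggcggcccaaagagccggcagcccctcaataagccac
Pgk1: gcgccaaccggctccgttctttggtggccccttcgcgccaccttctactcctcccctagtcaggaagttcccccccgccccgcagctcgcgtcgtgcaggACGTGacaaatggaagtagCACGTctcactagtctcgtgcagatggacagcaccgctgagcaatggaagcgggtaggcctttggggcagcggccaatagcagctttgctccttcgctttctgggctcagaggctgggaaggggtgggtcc
Slc16a3: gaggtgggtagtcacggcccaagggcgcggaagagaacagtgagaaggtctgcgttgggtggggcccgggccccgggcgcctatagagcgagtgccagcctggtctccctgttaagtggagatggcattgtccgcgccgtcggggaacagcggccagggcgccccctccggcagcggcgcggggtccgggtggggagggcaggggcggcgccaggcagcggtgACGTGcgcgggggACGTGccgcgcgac
Ldha: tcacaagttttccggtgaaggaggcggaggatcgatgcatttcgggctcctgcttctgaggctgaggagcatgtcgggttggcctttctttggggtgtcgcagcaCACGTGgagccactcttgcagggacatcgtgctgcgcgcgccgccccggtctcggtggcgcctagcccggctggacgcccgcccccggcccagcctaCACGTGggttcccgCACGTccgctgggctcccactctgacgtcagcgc
Egln2: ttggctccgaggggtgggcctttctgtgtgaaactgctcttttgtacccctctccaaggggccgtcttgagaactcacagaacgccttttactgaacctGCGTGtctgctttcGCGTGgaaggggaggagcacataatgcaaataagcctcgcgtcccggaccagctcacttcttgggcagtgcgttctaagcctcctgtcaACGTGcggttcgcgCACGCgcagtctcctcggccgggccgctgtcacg
All sequences run 5′ to 3′ on the strand of the gene and end at the base before the annotated start. The letters CACGTG hold ACGTG on both strands and are also the E-box bound by MYC and USF factors. Such a 6-base match occurs in the windows of Hif1a (1) and Ldha (2) and in none of the other 4 printed. All 11 members with KO libraries above WT libraries had ACGTG in at least 1 window, beside 12 of the 27 other members with a window. Over all genes it was 4998 of 27025, and a gene with several windows had more chances of a match. This is a count of letters chosen after the values were seen and not a record of binding.

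Depth was alike across libraries. Whole reads recovered from the FPKM values (fragments per kilobase of transcript, scaled to library size) summed to between 33506203 and 37137642 per library, and the 40 genes had between 36 and 52613 reads each. Ppara, the gene of the series title, had 1 to 11 reads in the WT and 10 to 23 reads in the KO libraries. These few reads do not check the labels, so WT and KO stand here for the libraries so labelled. The microglial genes were low in both groups, with the 13 markers found summing to between 99.5 and 125.3 FPKM in the WT libraries and between 109.6 and 126 in the KO libraries, 3 of the 13 higher without overlap. The 10 B cell markers summed to between 5031 and 5734 FPKM in WT libraries and between 4443 and 4835 in KO libraries, 5 of them lower without overlap. The 10 core macrophage markers summed to between 1234 and 3752 FPKM in WT libraries and between 4573 and 10835 in KO libraries, with all 10 higher on average in KO, 8 of them without overlap, and none at 0. Of 22 peritoneal macrophage markers, 19 were higher without overlap. The sum of the 22 ran from 677 to 1625 FPKM in WT libraries and from 3263 to 4626 in KO libraries. Of all tested genes, 9.75% were higher and 15.2% lower without overlap. Only 6 of the 13 microglial and 20 of the 22 peritoneal macrophage markers averaged 1 FPKM or more, the level needed for testing. Whether the 3 libraries of each genotype are separate cultures is not stated, and the p-values therefore cover library-to-library variation that could be technical.

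None of the 40 genes passed the test between KO and WT (limma on log2(FPKM + 1), Benjamini-Hochberg adjusted p under 0.05 over 10732 genes), where 0.028% of all tested genes were called higher and 0% lower. All 40 had a mean of at least 1 FPKM and were tested. At an unadjusted limma p under 0.05, 12 of the 40 were higher in KO and 0 lower, beside 8.86% higher and 8.21% lower of all tested genes. In 11 of the 40 every KO library lay above every WT library, and in 2 every KO library lay below, beside 9.75% and 15.2% of all tested genes. The median log2 difference (KO minus WT) was 0.16 over the 40 genes and -0.06 over all tested genes. By sign, 28 of the 40 differences were positive (70%), beside 35.4% of all tested genes. All 3 hexokinases and all 5 genes of the lower steps of glycolysis were positive, the flux regulators were split 2 and 2, and differences between roles were not tested. Without WT replicate 2, 13 of the 40 were called higher and 0 lower, beside 4.66% higher and 0.354% lower of all tested genes. With voom on recovered reads 0 of the 40 were called in either direction, beside 0.0466% higher and 0% lower. The 13 called without WT replicate 2 were Hk2, Hk3, Pfkl, Tpi1, Pgk1, Eno1, Pkm, Ldha, Slc16a3, Hif1a, Egln3, Vegfa and P4ha1. They are not all genes in which that library stood apart. In Hif1a and Hk2 it lay next to another WT library. Their SE was not smaller without it (0.126 and 0.170, beside 0.122 and 0.161 with it). In bulk RNA, fewer cells of a type and less RNA per cell cannot be told apart, and the core macrophage markers were higher in KO beside these genes, with a part in the result that was not tested.

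**Figure D1:**
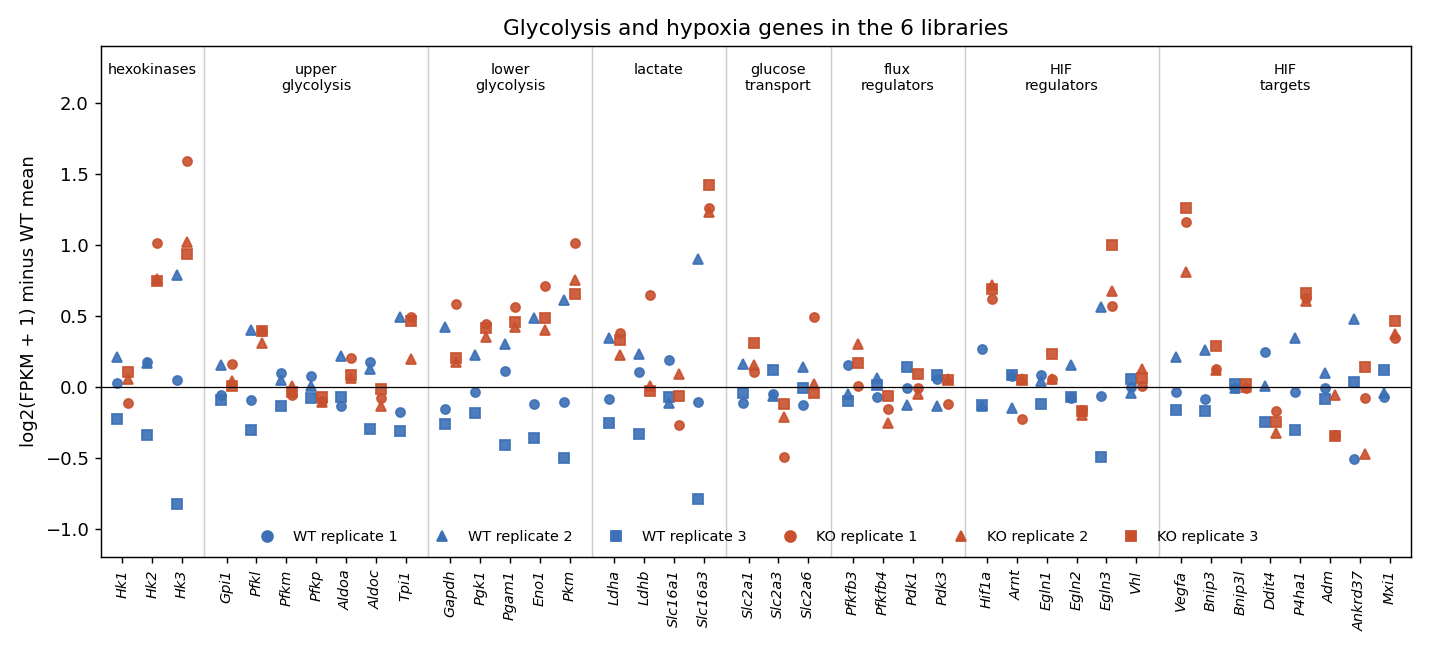
Log2(FPKM + 1) of each of the 40 genes in each library, minus the mean of the WT libraries (y axis), by role (x axis); blue marks WT, orange KO, and the shapes replicates 1 to 3. Vegfa, Hif1a, Hk2 and Mxi1 have KO libraries well above all WT libraries, Slc16a3, Hk3 and Pkm have WT replicate 2 between the other WT libraries and KO, and Bnip3l lies at the same level in all 6.

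Among the hexokinases, Hk2 and Hk3 were higher in every KO library than in any WT library, and Hk1 was not. The summed level of the 3 was 1.35-fold higher in KO, also without overlap. Hk1, the housekeeping form bound to mitochondria, stood at 19.2, 21.9 and 15.9 FPKM in WT and at 17.4, 19.7 and 20.4 FPKM in KO, given here and below in the order of replicates 1 to 3. The groups overlapped fully, and the log2 difference was 0.01 (SE 0.13, limma adjusted p = 0.96). Hk2, the inducible form and a HIF target, stood at 3.96, 3.94 and 2.46 FPKM in WT and at 7.87, 6.45 and 6.36 FPKM in KO. Its lowest KO library was above its highest WT library, and the mean was 2.00-fold higher (log2 difference 0.84, SE 0.16, limma adjusted p = 0.11). Hk3, a form typical of myeloid cells, stood at 4.06, 7.45 and 1.77 FPKM in WT and at 13.8, 8.96 and 8.40 FPKM in KO. WT replicate 2 came close to the lowest KO library, the WT libraries spread over more than their mean, and the log2 difference was 1.18 (SE 0.38, limma adjusted p = 0.20). As a share of the summed hexokinase FPKM, Hk1 made up 71.8 ± 6.7% in WT and 52.8 ± 7.3% in KO (SD, n = 3). Hk2 made up 12.9 ± 1.5% and 18.9 ± 1.1%, and Hk3 15.3 ± 6.8% and 28.3 ± 6.2%. For each of the 3 shares the groups did not overlap, but the shares of a library depend on each other and were not tested. The length behind the FPKM of Hk1 was 2800 bases against a transcript of 4278, so the size of its share is uncertain. Hk2 occupies bases 82725025 to 82774454 of mm10 chromosome 6, minus strand, with an opposite-strand noncoding gene, Gm17034, inside it. Hk3 occupies bases 55005985 to 55021385 of chromosome 13, minus strand, and overlaps the opposite-strand coding gene Unc5a. The strand setting is not known, so reads of such pairs cannot be told apart.

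**Figure D2:**
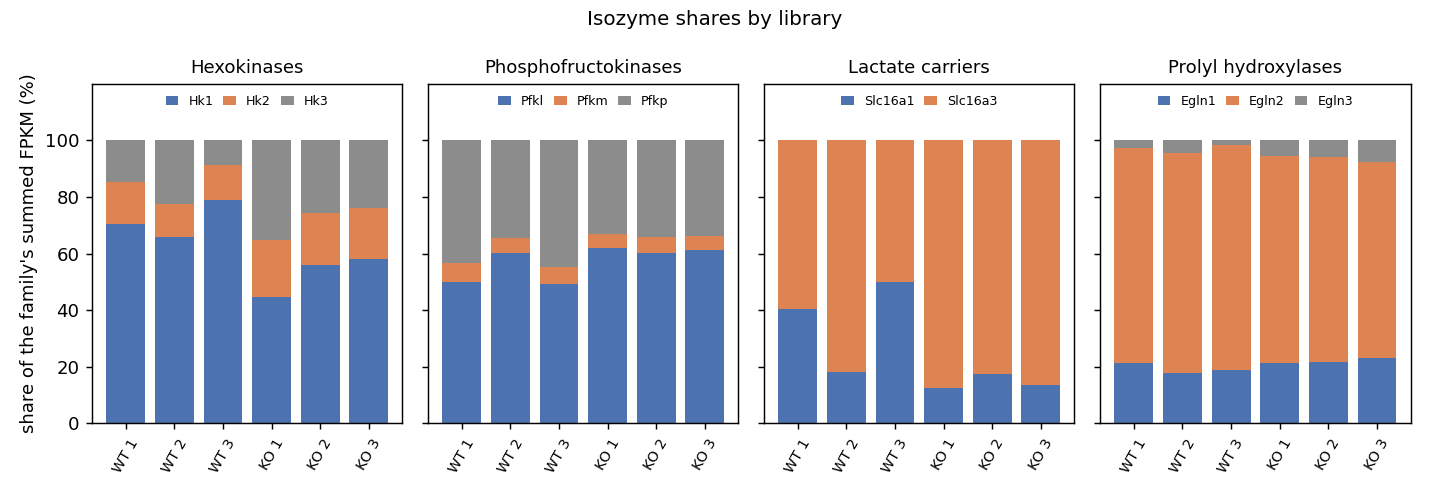
Share of the family's summed FPKM (y axis, %) taken by each isozyme in each library (x axis), for hexokinases, phosphofructokinases, lactate carriers and prolyl hydroxylases. The Hk1 share is below 60% in the KO libraries and above 65% in the WT libraries, and the Slc16a1 share is 40.4% and 49.9% in WT replicates 1 and 3 but 18.2% in WT replicate 2.

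The upper steps from glucose 6-phosphate to triose phosphates showed no gene without overlap between the groups. Gpi1, the isomerase, was the highest of them at 160.5 ± 15.4 FPKM in WT and at 168 ± 9.75 FPKM in KO (SD, n = 3, limma adjusted p = 0.74). Pfkl, the liver-type phosphofructokinase and the main form here, stood at 18.6, 26.7 and 15.9 FPKM in WT and at 26.5, 24.9 and 26.4 FPKM in KO. WT replicate 2 was the highest of all 6 libraries, and the log2 difference of 0.36 (SE 0.17) did not pass (limma adjusted p = 0.34). Pfkp, the platelet type, went slightly the other way, from 15.4 ± 0.888 to 14.3 ± 0.202 FPKM (limma adjusted p = 0.57). Of the summed phosphofructokinase FPKM, Pfkl took 49.97, 60.1 and 49.3% in WT and 61.9, 60.3 and 61.3% in KO, so WT replicate 2 lay next to the KO libraries. Pfkm, the muscle type, took 4.9 to 6.6% in any library. Tpi1, which interconverts the triose phosphates, stood at 61.9, 99.2 and 56.3 FPKM in WT and at 99.2, 80.3 and 97.0 FPKM in KO, with WT replicate 2 level with KO replicate 1. Aldoa and Aldoc, the aldolases, were listed at only 2.15 to 3.02 and 2.91 to 4.44 FPKM. Aldoa rested on 144 to 211 reads and Aldoc on 291 to 463 reads.

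The lower steps, from glyceraldehyde 3-phosphate to pyruvate, had 5 of 5 genes with positive differences (median log2 difference 0.48) and 3 without overlap. Pkm, pyruvate kinase, stood at 81.5, 135 and 61.5 FPKM in WT and at 178, 149 and 138 FPKM in KO. WT replicate 2 lay just under the lowest KO library, and the mean was 1.68-fold higher (log2 difference 0.81, SE 0.26, limma adjusted p = 0.20). Pgk1, the first ATP-forming kinase of the pathway and a HIF target, stood at 74.1, 88.8 and 66.9 FPKM in WT and at 104, 97.0 and 101.5 FPKM in KO (log2 difference 0.40, SE 0.11, limma adjusted p = 0.16). All KO libraries were above all WT libraries, and the ratio of the group means was 1.32. Pgam1, the mutase, stood at 34.4, 39.3 and 23.7 FPKM in WT and at 47.4, 42.8 and 43.9 FPKM in KO, without overlap (limma adjusted p = 0.23). Eno1, enolase, had the highest level of the 40 genes, at 178, 273 and 151 FPKM in WT and 319, 257 and 272 FPKM in KO, where WT replicate 2 exceeded 2 of the 3 KO libraries. Gapdh, often used as a constant reference, stood at 27.9, 42.1 and 25.7 FPKM in WT and at 47.2, 35.2 and 35.9 FPKM in KO. It was not constant here within WT, and the groups overlapped (log2 difference 0.32, SE 0.20, limma adjusted p = 0.45). Summed over the 15 glycolytic enzymes, FPKM came to 683, 939.8 and 592 in WT and to 1063, 908 and 934 in KO. WT replicate 2 lay inside the KO range, and the other WT libraries lay below it.

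Several of these enzyme genes have near-identical copies, so their levels are uncertain. Of the 50-base stretches in its longest coding transcript, Gapdh shared 82.5% with transcripts of other genes, 213 of them pseudogenes in GENCODE M21. The share was 72.2% for Eno1, 68.0% for Pgk1, 41.5% for Pgam1, 34.4% for Pkm and 13.5% for Aldoa. For the HIF target Bnip3 it was 62.4%, so its level is uncertain too. It was 0% for 19 of the 40 genes, among them Hk2, Hk3 and Slc16a3. How shared reads were assigned was not given, and a level of 31.9 ± 8.88 FPKM for Gapdh in WT is below that of Tpi1 at 72.5 ± 23.3. The transcript length behind each FPKM, as reads and FPKM give it, was within 1.5-fold of the longest coding transcript for 34 of the 40 genes. It was 7972 bases against 2432 for Pkm, 5540 against 1815 for Ldha, 338 against 1304 for Ldhb and 11931 against 2115 for Pdk3. Hk1, at 2800 against 4278, and Slc2a3, at 6206 against 3959, were the other 2 outside that range. A length common to all libraries affects levels between genes and not the difference between libraries of 1 gene. Whether reads shared with other genes affect that difference was not tested.

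**Figure D3:**
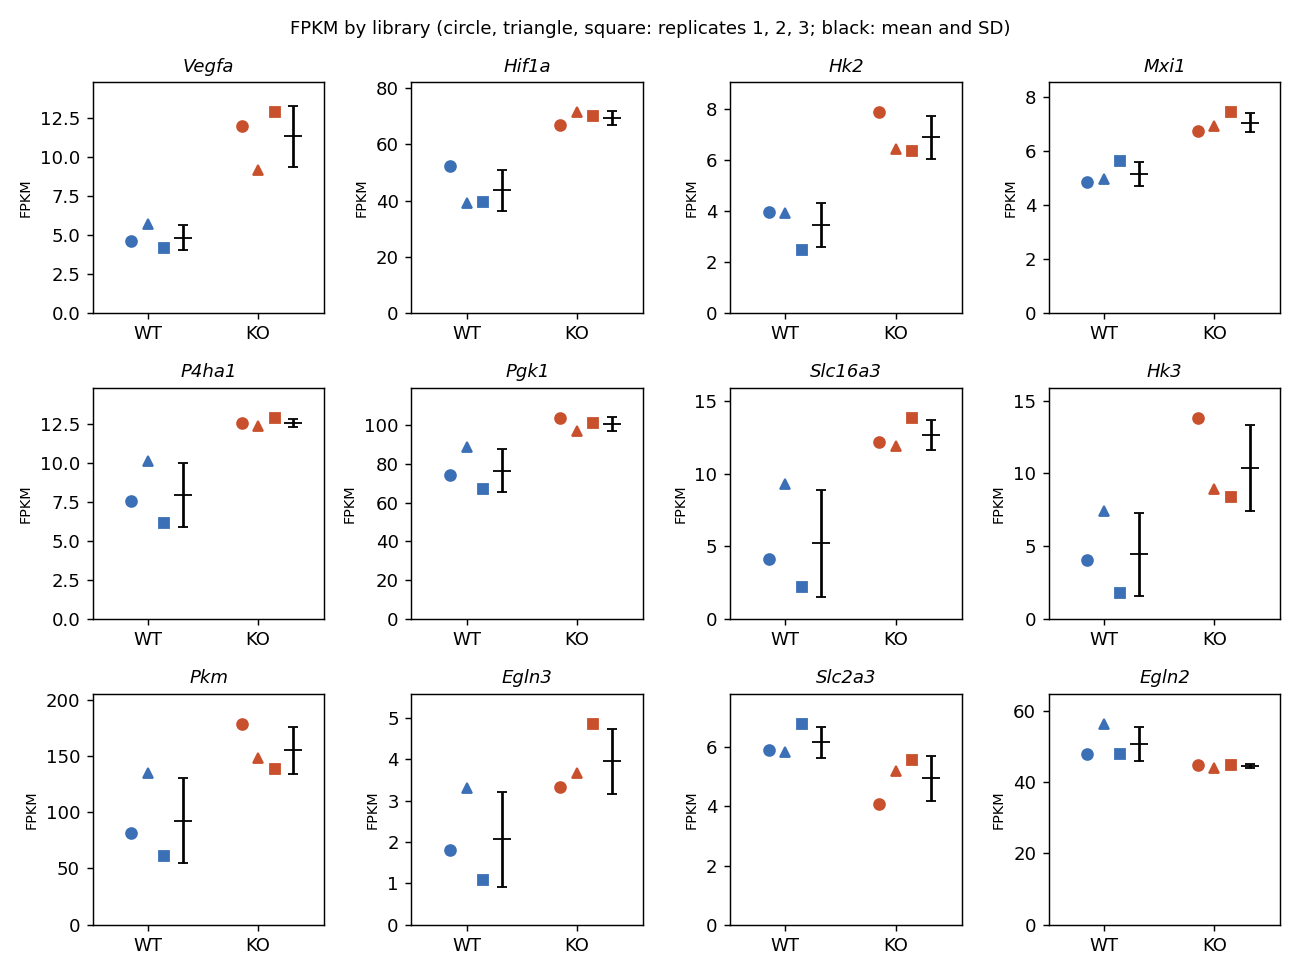
FPKM (y axis, from 0) of 12 genes without overlap between WT and KO, by library; circles, triangles and squares are replicates 1, 2 and 3, and black bars the mean and SD of each group. In Hif1a the circle of WT replicate 1 is the highest WT library and in Hk2 the square of WT replicate 3 is the lowest, whereas in P4ha1, Slc16a3, Hk3, Pkm and Egln3 the triangle of WT replicate 2 lies above the other WT libraries.

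Of the 4 lactate genes, 1 carrier separated the groups and the enzyme subunits did not. Slc16a3 encodes MCT4, the lactate exporter of glycolytic cells and a HIF target, and stood at 4.13, 9.32 and 2.18 FPKM in WT and at 12.2, 11.9 and 13.8 FPKM in KO. This was the largest mean log2 difference of the 40 genes at 1.30 (SE 0.37, limma adjusted p = 0.16), with KO libraries close together and WT libraries far apart. Slc16a1, which encodes the more widespread carrier MCT1, ranged over 2.07 to 2.80 FPKM in WT and 1.76 to 2.54 FPKM in KO (limma adjusted p = 0.77). Slc16a3 accordingly made up 59.6, 81.8 and 50.1% of the pair in WT and 87.4, 82.4 and 86.3% in KO. Ldha, the dehydrogenase subunit that favours lactate, stood at 49.9, 67.7 and 44.3 FPKM in WT and at 69.2, 62.0 and 67.0 FPKM in KO (log2 difference 0.31, SE 0.15, limma adjusted p = 0.35). Only WT replicate 2 kept the groups from separating. Ldhb, the heart-type subunit, had a log2 difference of 0.20 (SE 0.22, limma adjusted p = 0.66). Its recovered reads, 36 to 90, may be too low, since the length behind its FPKM was 338 bases against a transcript of 1304. Slc16a3 occupies bases 120948480 to 120960868 of mm10 chromosome 11, plus strand, and overlaps no other annotated gene.

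Of the 3 glucose transporters, none was higher in KO without overlap and 1 was lower. Slc2a1 encodes GLUT1, the main HIF-responsive transporter, and stood at 30.4, 36.9 and 31.9 FPKM in WT and at 35.5, 36.8 and 41.0 FPKM in KO (log2 difference 0.19, SE 0.10, limma adjusted p = 0.40). Slc2a3, encoding the high-affinity transporter GLUT3, stood at 5.91, 5.84 and 6.78 FPKM in WT and at 4.09, 5.18 and 5.57 FPKM in KO. Here every KO library was below every WT library, by a log2 difference of -0.28 (SE 0.12, limma adjusted p = 0.30). A processed pseudogene, Gm4482, lies inside Slc2a3 on the same strand. Slc2a6, encoding a lysosomal transporter of inflammatory macrophages, stood at 15.3 ± 1.51 FPKM in WT and at 17.4 ± 3.91 FPKM in KO, where KO replicate 1 at 21.9 FPKM was the highest library.

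For the 4 regulators of flux through phosphofructokinase and pyruvate dehydrogenase the groups overlapped, and none passed the test. Pfkfb3, which makes the activator fructose 2,6-bisphosphate, stood at 20.7 ± 2.07 FPKM in WT and at 23.2 ± 2.52 FPKM in KO (limma adjusted p = 0.51). Pfkfb4, a related enzyme, stood at 13.4 ± 0.678 and 11.9 ± 0.827 FPKM (limma adjusted p = 0.40). The pyruvate dehydrogenase kinases divert pyruvate from mitochondria, and Pdk1 is a HIF target. Pdk1 stood at 10.7 ± 1.11 FPKM in WT and at 10.7 ± 0.587 FPKM in KO, with a log2 difference of 0.01 (SE 0.10). Pdk3 stood at 3.56 ± 0.364 and 3.53 ± 0.311 FPKM, with a log2 difference of -0.01 (SE 0.10).

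Among the HIF regulators, Hif1a mRNA had KO libraries far above WT and its partner Arnt did not. Hif1a stood at 52.2, 39.2 and 39.4 FPKM in WT and at 66.8, 71.4 and 70.3 FPKM in KO. The mean was 1.59-fold higher (43.6 ± 7.42 and 69.5 ± 2.43 FPKM, SD, n = 3, log2 difference 0.67, SE 0.12, limma adjusted p = 0.11). Unlike in Pkm or Slc16a3, the highest WT library was replicate 1 and replicate 2 was the lowest. Arnt stood at 22.3, 18.9 and 22.4 FPKM in WT and at 17.9, 22.0 and 21.8 FPKM in KO (log2 difference -0.04, SE 0.11). Vhl stood at 12.8 ± 0.469 and 13.4 ± 0.583 FPKM (log2 difference 0.06, SE 0.08). Of the 3 hydroxylases, Egln3, itself a HIF target, stood at 1.80, 3.31 and 1.08 FPKM in WT and at 3.34, 3.67 and 4.85 FPKM in KO. WT replicate 2 almost reached KO replicate 1, and the log2 difference was 0.75 (SE 0.26, limma adjusted p = 0.22). Egln2 stood at 47.9, 56.3 and 48.0 FPKM in WT and at 44.9, 43.9 and 44.7 FPKM in KO, lower in every KO library (log2 difference -0.18, SE 0.09, limma adjusted p = 0.35). Egln1, the main oxygen sensor for HIF1α, stood at 12.7 ± 1.00 and 13.8 ± 1.04 FPKM with overlap. The share of Egln3 in the summed FPKM of the 3 came to 3.1 ± 1.4% in WT and 6.3 ± 1.1% in KO, and Egln2 took 77.5 ± 1.7% and 71.6 ± 2.0%. Hif1a occupies bases 73901375 to 73947530 of mm10 chromosome 12, plus strand, where it is overlapped by an antisense gene, Gm15283, and by a same-strand coding gene, Gm49321. These are mRNA levels, while HIF1α is controlled largely as a protein, which was not measured.

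Of the 8 HIF targets, 5 had positive and 3 negative differences, and 3 were without overlap, all higher in KO. Vegfa, the vessel growth factor, stood at 4.63, 5.68 and 4.16 FPKM in WT and at 11.96, 9.13 and 12.9 FPKM in KO. It had the smallest p of the 40 genes, with a mean 2.346-fold higher (4.82 ± 0.778 and 11.3 ± 1.95 FPKM, SD, n = 3, log2 difference 1.08, SE 0.15, limma adjusted p = 0.074). P4ha1, a collagen prolyl hydroxylase, stood at 7.57, 10.15 and 6.12 FPKM in WT and at 12.6, 12.4 and 12.9 FPKM in KO. Its KO libraries had an SD of 0.260 FPKM, and the log2 difference was 0.63 (SE 0.16, limma adjusted p = 0.13). Mxi1, a MYC antagonist, stood at 4.83, 4.95 and 5.64 FPKM in WT and at 6.75, 6.93 and 7.43 FPKM in KO, a small difference with little spread (log2 difference 0.39, SE 0.09, limma adjusted p = 0.12). The other 5 targets overlapped between the groups. Bnip3l, a mitophagy receptor, was the most even of all, at 23.4 to 23.9 FPKM in every library, and its relative Bnip3 stood at 5.68 ± 1.08 and 6.50 ± 0.505 FPKM. Ddit4, an inhibitor of mTORC1 signalling, stood at 56.3, 47.6 and 39.7 FPKM in WT and at 42.0, 37.5 and 39.8 FPKM in KO (log2 difference -0.25, SE 0.13). Adm, which encodes the peptide adrenomedullin, went from 6.41 ± 0.464 to 5.25 ± 0.741 FPKM (log2 difference -0.25, SE 0.11, limma adjusted p = 0.31). Ankrd37 rested on 113 to 257 reads and ranged from 4.02 to 8.97 FPKM within WT alone. Vegfa occupies bases 46016993 to 46032369 of mm10 chromosome 17, minus strand, and P4ha1 bases 59323296 to 59373304 of chromosome 10, plus strand, with no other gene over either. Mxi1 occupies bases 53310518 to 53375810 of chromosome 19, plus strand, and is overlapped by 2 opposite-strand genes.

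The members differed in where WT replicate 2 lay between the other WT libraries and KO. WT replicate 2 was the highest WT library in 24 of the 40 genes, beside 41.7% of all tested genes. Against the mean of WT replicates 1 and 3, Pkm was higher by 0.92 (log2) in WT replicate 2 and by 1.11 in KO. Slc16a3 was higher by 1.35 and 1.75, Hk3 by 1.18 and 1.57, and Eno1 by 0.73 and 0.77 in the same order. Vegfa was higher by 0.31 in WT replicate 2 and by 1.18 in KO, and Hk2 by 0.25 and 0.92. Hif1a differed by -0.21 in WT replicate 2 and by 0.60 in KO, and Mxi1 differed by -0.07 and 0.37. Both shifts use the same 2 WT libraries as their base and are given as a description. The mean log2(FPKM + 1) of the 10 core macrophage markers was 5.45, 6.44 and 4.88 for the WT libraries and 7.74, 7.004 and 6.78 for the KO libraries, each in replicate order, with WT replicate 2 again nearest to KO.

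**Figure D4:**
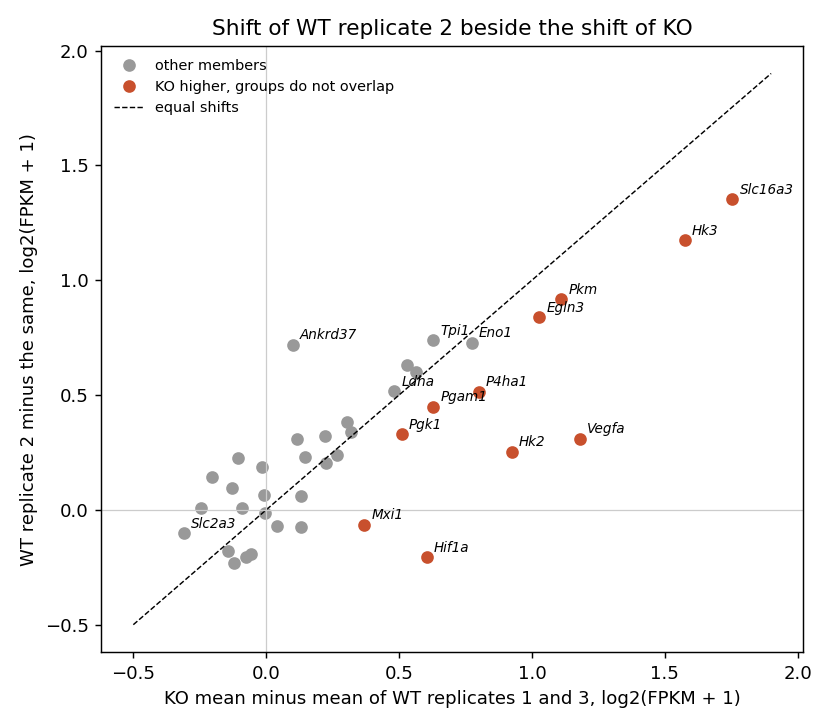
For each of the 40 genes, KO mean minus the mean of WT replicates 1 and 3 (x axis) and WT replicate 2 minus the same mean (y axis), both in log2(FPKM + 1); orange marks genes higher in every KO library than in any WT library and the dashed line equal shifts. Eno1 and Ldha lie close to the line, and Pkm and Egln3 lie somewhat below it. Slc16a3 and Hk3 have the largest shifts on both axes, and Mxi1 and Hif1a lie below 0 on the y axis.

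When the core macrophage score entered the model as a covariate, the median difference of the 40 genes was -0.10 and 18 of the 40 changed sign. Of the 28 genes with positive differences 14 changed sign (50%), and of the 12 with negative differences 4 did (33.3%). Over all tested genes the shares were 47.7% and 42%, so the members' share was near the background. The score itself averaged 5.59 ± 0.79 over WT and 7.17 ± 0.51 over KO libraries (SD, n = 3), so the covariate differed between the groups. Pkm then differed by -0.17 (SE 0.16), Eno1 by -0.22 (SE 0.16), Hk3 by -0.26 (SE 0.20) and Gapdh by -0.39 (SE 0.13). Hif1a differed by 0.77 (SE 0.21), Vegfa by 0.79 (SE 0.23), Mxi1 by 0.54 (SE 0.13) and Hk2 by 0.38 (SE 0.19). At an unadjusted limma p under 0.05, 3 members were higher (Hif1a, Vegfa and Mxi1) and 2 lower (Gapdh and Egln2), beside 6.65% and 6.24% of all tested genes. No member passed after adjustment, with a lowest limma adjusted p of 0.37.

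**Figure D5:**
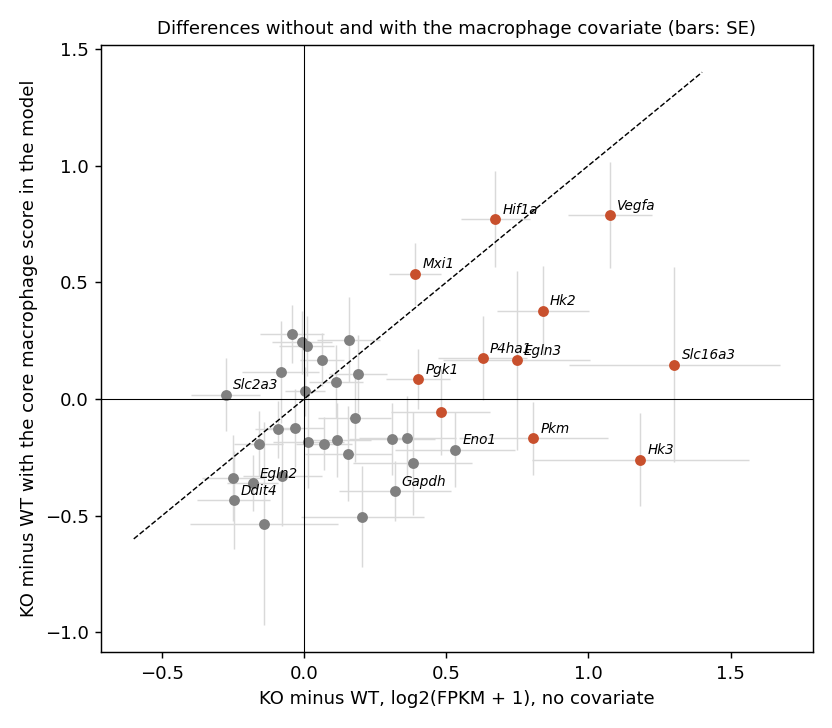
KO minus WT difference in log2(FPKM + 1) without (x axis) and with (y axis) the core macrophage score in the model, for the 40 genes with SE bars; orange marks genes higher in every KO library than in any WT library and the dashed line equality. Hif1a, Vegfa and Mxi1 stay well above 0 on both axes, while Pkm, Eno1 and Hk3 cross below 0.

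Further genes of these pathways were taken from 6 lists made by textbook role, with 109 of 118 symbols found and 76 tested. None passed in either direction (limma adjusted p of at least 0.11), and 11 were higher and 3 lower at an unadjusted limma p under 0.05. Of all tested genes, 8.86% were higher and 8.21% lower at that limit. Without overlap, 9.75% of all tested genes were higher and 15.2% lower, and 35.4% had positive differences. The median log2 difference of the 76 was -0.04. The pentose phosphate pathway, which makes NADPH from glucose 6-phosphate, had 8 of 8 tested genes positive with a median of 0.27. Its members H6pd, Pgd and Taldo1 stood at 11.9 ± 0.961 and 15.2 ± 1.24, at 72.3 ± 25.1 and 130.2 ± 39.2, and at 157 ± 35.6 and 223 ± 43.5 FPKM in WT and KO. H6pd did not overlap between groups, and the other 2 did. Of 16 other glycolysis and glycogen genes 4 were positive, and 3 were higher and 5 lower without overlap. Gbe1, the glycogen branching enzyme, and Pygl, a glycogen phosphorylase, were the ones with the smallest p, at 10.7 ± 3.81 and 24.4 ± 5.28 FPKM and at 9.96 ± 5.72 and 28.3 ± 7.23 FPKM. Eno3, the muscle enolase, stood at 7.57 ± 1.19 and 5.76 ± 0.279 FPKM. Of 22 other HIF targets 12 were positive, and 5 were higher and 1 lower without overlap. Trf, transferrin, stood at 37.7, 85.8 and 33.5 FPKM in WT and at 324, 176 and 152 FPKM in KO. Plod1, a collagen lysyl hydroxylase, stood at 7.34 ± 3.39 FPKM in WT and at 14.5 ± 3.09 FPKM in KO. Both were without overlap and did not pass (limma adjusted p = 0.11 for Trf and 0.17 for Plod1).

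The other HIF regulator, transport and pyruvate dehydrogenase lists held few genes without overlap. Of 14 tested HIF regulators 3 were positive, and only Epas1, which encodes HIF2α, was without overlap, at 0.742 ± 0.119 and 1.59 ± 0.708 FPKM. Its level was far below that of Hif1a in both groups. Cited2, which competes with HIF for its coactivators, and Elob, a partner of VHL, overlapped at 14.9 ± 1.25 and 13.4 ± 0.343 FPKM and at 115 ± 26.2 and 131 ± 11.6 FPKM. Hif1an, the asparagine hydroxylase that blocks HIF activation, stood at 14.3 ± 2.01 and 13.3 ± 0.493 FPKM. Of 7 tested transport genes 3 were positive, with Slc2a9, a urate transporter, at 2.96 ± 0.407 and 3.64 ± 0.125 FPKM without overlap. Slc2a8, encoding an intracellular glucose transporter, stood at 4.56 ± 0.366 and 3.96 ± 0.425 FPKM. Bsg, the chaperone of the lactate carriers, stood at 84.1 ± 16.7 and 102 ± 17.0 FPKM with overlap. Of 9 tested pyruvate dehydrogenase genes 2 were positive and none was without overlap. Pdp2, Dld and Dlat were the ones with the smallest p, at 4.10 ± 0.531 and 3.64 ± 0.113, at 27.3 ± 0.788 and 26.3 ± 0.890, and at 7.86 and 7.35 ± 0.212 FPKM, where Dlat ranged from 6.79 to 8.88 FPKM in WT. Pdk4, a PPARα target in other tissues, was nearly absent at 0.0235 to 0.136 FPKM in any library and was not tested.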

How the data were processed

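Gene expression was measured by RNA sequencing of total RNA in 6 libraries, 3 labelled WT and 3 labelled KO, grouped by the sample titles. The authors deposited FPKM, in 1 table per library. The genome build is mm10, as the submitters' processing notes list it. The aligner, counter, annotation and strand setting were not given in the sources used here. FPKM are not counts, so log2(FPKM + 1) of genes averaging 1 FPKM or more was tested with limma 3.58.1 (R 4.3.3, trended eBayes, two-sided, Benjamini-Hochberg over 10732 genes). A log2 difference on this scale understates the change of low genes. FPKM steps gave whole reads within 0.002 for 19328 of the 19331 genes present in at least 2 libraries, and these served limma's voom as an alternative. Counts that share a divisor come out too low, and in simulation 98.2% of 7857 genes returned their exact counts.

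The 40 members and all lists were chosen with earlier results of these data known. Values in every library were given for members without overlap between groups and for some others of the isozyme families and HIF genes. The remaining members were given as mean and SD, range, share or difference. Up to 3 genes of the smallest p were named per pathway list, with Hif1an, Bsg and Pdk4 in addition. On data simulated with the real means and spreads, 200 of 10732 genes were changed by a known fold on the log2(FPKM + 1) scale. Of these, 45.5% were recovered at 1.5-fold, 82.5% at 2-fold and 98.5% at 4-fold, with 8, 4 and 12 false calls. Noise was independent between genes, so these rates do not cover shifts shared by many genes of 1 library. The alternatives were pseudocounts of 0.1 and 5, no filter or 5 FPKM, 3 scalings, variance settings, the replicate number as a block, the core macrophage score as a covariate, voom and each library left out. Further marker lists covered mast, neutrophil, dendritic, T and NK, neural, fibroblast and red cells. The 5 neutrophil markers found summed to 6.45 to 21.9 FPKM in WT and 29.6 to 44.4 in KO. Most of that sum was Csf3r, at 8.66 ± 4.29 and 27.8 ± 6.97 FPKM, with S100a8 at 3.57 ± 3.57 and 8.10 ± 0.313 FPKM. S100a9, Retnlg and Camp were below 1 FPKM in every library, so the sum does not show a difference in neutrophils. The 11 T and NK markers found summed to 189.6 to 233 FPKM in WT and 153 to 182 in KO. The neural list summed to 16.4 to 21.2 in WT and 14.1 to 16.2 in KO, mostly from Mbp, which overlapped at 14.0 ± 1.80 and 13.3 ± 0.852 FPKM. The mast, dendritic, fibroblast and red cell sums overlapped. Python 3.11.15 with pandas 2.3.3 and numpy 2.4.6 was used, and figures drawn with matplotlib 3.10.9. Splice forms such as those of Pkm were not analysed here. A gene that the naming rule picked from the HIF target list is not reported here.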

Additional observations from a re-analysis of the deposited data

How the results depend on the processing

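The count of 3 genes called higher was 6 with a pseudocount of 5, 0 with no filter, 11 with the replicate block, 0 with the core macrophage covariate and 5 with voom. It ran from 0 to 500 when 1 library was left out: 0 without WT replicate 1 or WT replicate 3, 1 without KO replicate 1 or KO replicate 2, and 500 without WT replicate 2. Genes called lower then ran from 0 to 38, and members called higher from 0 to 13, both highest without WT replicate 2. Under the other 17 alternatives no member was called in either direction, and with the replicate block the lowest limma adjusted p of a member was 0.072. Whether the replicate numbers pair the libraries is not stated in the labels. Deviations from the group means correlated at -0.21, -0.38 and 0.27 for numbers 1 to 3, which cannot decide it with 3 libraries per group.

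The members' median of 0.16 was -0.10 with the covariate and kept its sign elsewhere, at 0.09 without WT replicate 3 and 0.22 without WT replicate 2. With the covariate, differences turned to -0.18 for Hk1, -0.26 for Hk3, -0.19 for Gpi1, -0.17 for Pfkl, -0.18 for Aldoa, -0.28 for Tpi1, -0.39 for Gapdh, -0.058 for Pgam1, -0.22 for Eno1, -0.17 for Pkm, -0.17 for Ldha, -0.50 for Ldhb, 0.12 for Slc16a1, 0.019 for Slc2a3, -0.23 for Slc2a6, 0.24 for Pdk3, 0.28 for Arnt and -0.082 for Bnip3. The cause was not tested. With a common FPKM total, Hk1 was at -0.011, Pdk1 at -0.016 and Bnip3l at -0.024. With median-of-ratios scaling, Pfkm was at 0.014, Pdk3 at 0.045 and Arnt at 0.021. Gpi1 was at -0.017 with quantile normalization and Bnip3l at -0.0022 with voom. With 1 library left out, the sign changed within ranges of -0.10 to 0.12 for Hk1, -0.10 to 0.016 for Pfkm, -0.23 to 0.0098 for Aldoc, -0.014 to 0.32 for Ldhb, -0.17 to 0.012 for Slc16a1, -0.013 to 0.26 for Slc2a6, -0.056 to 0.080 for Pdk1, -0.075 to 0.051 for Pdk3, -0.12 to 0.051 for Arnt, -0.0061 to 0.011 for Bnip3l and -0.40 to 0.10 for Ankrd37. The recovered reads of Ldhb, 36 to 90, may be too low, so its depth is uncertain.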
